A study of Mus musculus with 2 samples.

Results

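Collagen chain genes were examined on 2 single-colour microarrays of NIH3T3 cells, an established mouse fibroblast line, with 1 array for each condition. Members were the non-control probes whose gene name in the scanner files is Col, a number, the letter a and a number, which gave 78 probes for 39 genes among 19396 named genes. The control cells carried the empty pcDNA3.1 plasmid and the other cells carried pcDNA3.1-MARVELD1, a plasmid for the small membrane protein MARVELD1. Both were stable lines selected with the drug G418, so control and test cells alike went through transfection and selection, and Cy3-labelled total RNA was hybridised. The sources used here do not say whether each line is 1 clone or a pool, or from which species the insert came. Both arrays lay on 1 slide. The mouse gene Marveld1 read 8724.7 and 6292.8 on its brighter probe and 184.4 and 126.4 on its dimmer probe (empty vector array first). Neither probe was therefore higher on the array of the cells meant to overexpress it, but whether either can read the insert is not known here. Because the label could not be checked, the second array is called the array labelled MARVELD1 throughout, and each direction below rests on that label. With 1 array per condition there is no replicate check, no test and no p-value, and 2-fold is a limit of size only.

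Collagens are the main structural proteins of the extracellular matrix, and fibroblasts are a major source of them. Their chains wind around each other into a triple helix, which requires glycine at a fixed interval along the chain. Fibrillar collagens build the tensile fibrils of connective tissue, type IV chains form the network of basement membranes, and type VI chains form beaded microfibrils around cells. FACIT collagens sit on the surface of fibrils, and transmembrane collagens are anchored in the cell surface.

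The repeat of the triple helix is visible in a few of the 60-base probes themselves. Because every glycine codon begins with GG, a helix-coding stretch shows GG at steps of 9 bases (the motif GGNNNNNNN repeated). The following probes carry at least 6 such GG in a row, marked in capitals, and are shown because this signature sets them apart from all 41174 distinct probes of the array.
Col11a2 probe A_52_P563285: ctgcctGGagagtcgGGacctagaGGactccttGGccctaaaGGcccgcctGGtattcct
Col5a1 probe A_52_P237371: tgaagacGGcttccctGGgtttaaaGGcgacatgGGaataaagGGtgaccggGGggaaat
Col5a3 probe A_52_P503796: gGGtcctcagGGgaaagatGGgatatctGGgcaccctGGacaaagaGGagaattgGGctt
The 3 sequences were the only probes on the array with such a run (0.0073% of all probes), and all 3 belong to fibrillar collagen genes. Reading the opposite strand gave 0 probes, and the longest run in any probe outside the collagen genes was 4. The Col11a2 probe read 78.3 with empty vector and 92.3 on the array labelled MARVELD1. Neither the Col5a1 probe nor the Col5a3 probe was well above background on either array.

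Of the 39 genes, 35 were detected, meaning that some probe exceeded background clearly on 1 array or both, and the genes below are those 35 unless stated. The probe with the greatest average signal stands for its gene, and every log2 difference is the array labelled MARVELD1 minus the empty vector array, after scaling to the 75th percentile of intensity. By this measure 8 collagen genes were at least 2-fold lower on the array labelled MARVELD1, which is 22.9% of the 35, against 3.55% of 16290 detected genes. Conversely, 3 were at least 2-fold higher, 8.57% against 5.53% of all detected genes. These shares cover genes named through RefSeq, and with the other names of the files kept as genes they were 3.45% and 6.39% of 21079. At 1.5-fold the collagen counts were 12 lower and 5 higher, where 8.99% of all genes were lower and 19.7% higher. At 3-fold they were 4 and 1, where the shares of all genes were 1.31% and 1.28%. The median log2 difference of the collagen genes was -0.35 and that of all genes 0.19, and 15.5% of all genes lay below the collagen median. In all, 21 collagen genes (60%) had a difference below 0 and 14 above it, and 34.3% of all genes were below 0. Nearest to the 2-fold limit were Col11a1, just past it at -1.03, and Col5a3, just short of it at 0.96.

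**Figure D1:**
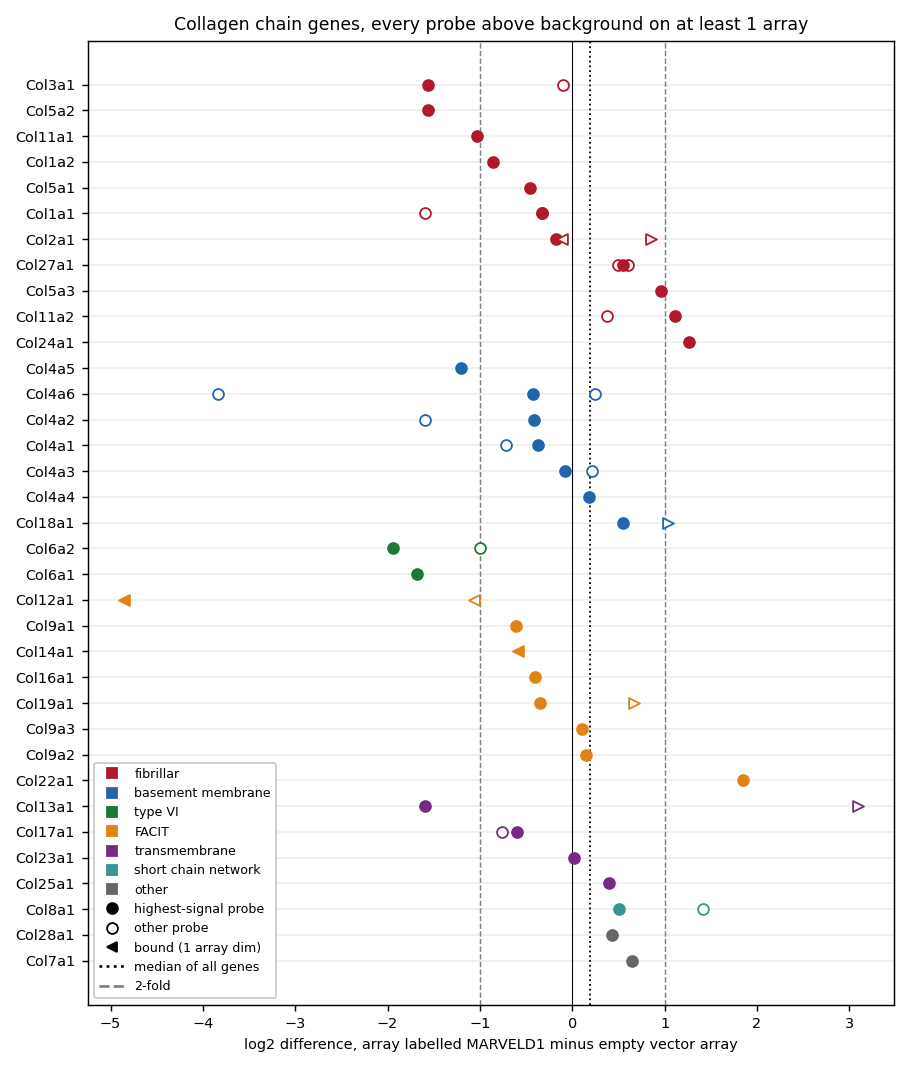
Log2 difference (array labelled MARVELD1 minus empty vector array, x axis) of each detected collagen probe, by gene (y axis) and assembly (colour). Filled symbols mark the highest-signal probe of a gene, triangles mark bounds, the dotted line is the median of all genes (0.19), and the dashed lines mark 2-fold. The filled symbols of Col3a1, Col5a2, Col6a1, Col6a2 and Col12a1 lie left of the lower 2-fold line, and the open symbols show how far other probes of a gene depart from it.

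Collagen genes with bright probes lay mostly on the lower side. Of the 14 genes with a geometric mean intensity of 1000 or more, 4 passed 2-fold downward and 0 upward. The median of the 14 was -0.43, with Col8a1 (0.51) and Col5a3 (0.96, just short of 2-fold) above 0. Col6a2 lay at this limit with a geometric mean of 999.7, and by the arithmetic mean 15 genes reached it, 5 of them lower. All 6764 genes of that brightness had a median of 0.26, with 1.98% at least 2-fold lower and 3.03% higher. The 15 collagen genes between 100 and 1000 had 4 lower and 2 higher and a median of 0.15. In that range all 6658 genes had a median of 0.10, where 4.76% passed 2-fold downward and 5.78% upward. The collagen median there was thus close to that of all genes. Below 100 there were 6 collagen genes, 0 of them 2-fold lower and 1 higher, and their median was 0.01. All 2868 genes below 100 had a median of 0.24, where 4.46% passed 2-fold downward and 10.8% upward. Spots printed 10 times on each array gave the technical spread of a difference between single spots as an SD of 0.17 at 1000 or more, 0.40 between 100 and 1000 and 0.66 below 100. A 2-fold difference is thus several times this SD in bright probes and less than 2 times it in the dimmest.

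**Figure D2:**
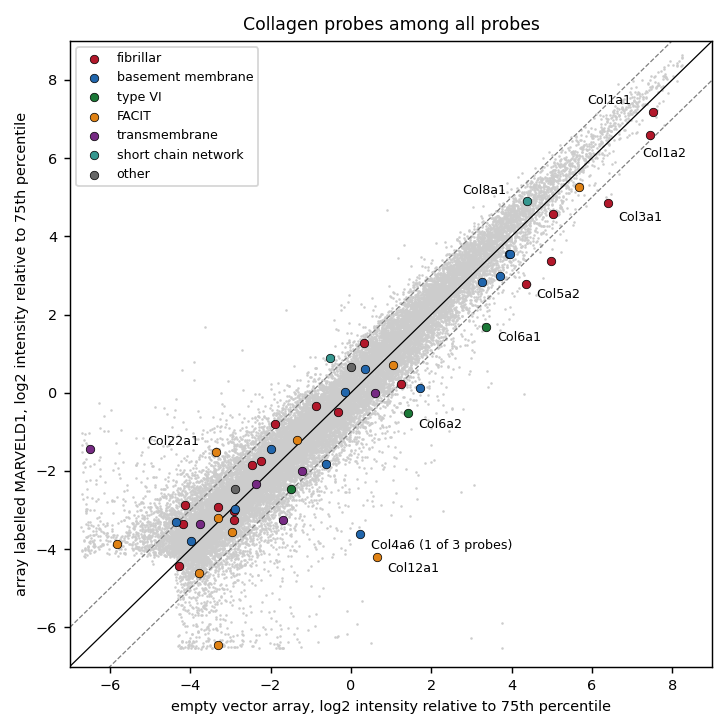
Scaled log2 intensity of collagen probes (coloured by assembly) and of all detected probes (grey), empty vector array on the x axis and the array labelled MARVELD1 on the y axis. The solid line marks equality and the dashed lines 2-fold, and a probe dim on 1 array is drawn at its measured value. Col12a1 and 1 of 3 Col4a6 probes stand far below the dashed line, with Col3a1, Col5a2, Col6a1 and Col6a2 also under it.

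Fibrillar collagens divided by chain. All 11 genes were detected, of which 3 passed 2-fold downward and 2 upward, and their median was -0.33. Col3a1, the chain of type III fibrils in elastic tissues, read 64530.2 with empty vector and 20080.2 on the array labelled MARVELD1 at its brightest probe (mm9 chr1:45405589-45405648), a log2 difference of -1.56 or 2.94-fold lower. Col5a2, a chain of type V collagen that helps start and limit the width of type I fibrils, read 15626.3 and 4849.7 on its single probe (mm9 chr1:45433621-45433680), 2.95-fold lower. Its partner chain Col5a1 read 25344.1 and 16826.3, a difference of -0.46. Col5a3, the remaining chain gene of type V, read 959.2 and 1711.1, 1.95-fold higher. The chains of type V collagen thus differed in opposite directions on these arrays.

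The type I chains form the most abundant fibril of skin, bone and tendon. Col1a2 read 133522.3 and 67360.8 (mm9 chr6:4490619-4490678), a difference of -0.86. With quantile normalization this gene passed the limit at -1.05, with loess at -1.22 and with normexp at -1.02. Col1a1 was measured by a probe with 10 spots per array, of which 9 were usable on the empty vector array. There its intensities ran from 117197.2 through a median of 136314.1 to 171893.4. On the array labelled MARVELD1 they ran from 95234.0 through 100199.5 to 111726.2. After scaling, the log2 values ran from 7.25 to 7.81 with empty vector and from 7.08 to 7.31 on the array labelled MARVELD1. The ranges overlapped on this scale, where 3 of the 10 MARVELD1 spots lay above the lowest empty vector spot. The difference was -0.33 with a standard error of 0.065, which covers spot noise only.

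A second Col1a1 probe read lower by more. It read 24114.1 and 7260.6, a difference of -1.60 or 3.04-fold lower, and the remaining, dim probe read 101.5 and 74.1, a difference of -0.33. The second probe lies at mm9 chr11:94812052-94812111, about 1 kilobase before the 10-spot probe at chr11:94813075-94813134. It is shown because the size of the difference for the type I chain turns on which of these probes is read.
Col1a1 probe A_51_P377094: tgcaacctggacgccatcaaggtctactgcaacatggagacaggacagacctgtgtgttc
None of its 3 forward reading frames holds a stop codon. Whether the probes lie in coding or untranslated exons is not known here, since no annotation of build mm9 was used.

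Type XI, II, XXIV and XXVII collagens are minor or cartilage fibril chains. Col11a1 read 1826.1 and 818.1, 2.04-fold lower, on 1 of its 3 probes, and the others were not well above background on either array. Col11a2, whose chain assembles with that of Col11a1, read 205.7 and 406.2, 2.16-fold higher, with its other probe at 0.37. The Col11a2 value was 0.63 with normexp and 0.74 with the mean of its probes, short of 2-fold. Col24a1 was 2.39-fold higher but dim, at 43.8 and 96.0. Col27a1 gave 0.55, 0.49 and 0.60 on its 3 probes, the smallest range (0.11) among the 11 collagen genes with several measured probes.

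Col2a1, the main cartilage collagen, gave little difference. Its 2 probes at the end of the gene overlap by 40 bases, shown in capitals because the pair lets one sequence be read by separate spots.
Col2a1 probe A_52_P216436: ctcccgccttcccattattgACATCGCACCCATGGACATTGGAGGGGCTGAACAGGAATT
Col2a1 probe A_51_P317141: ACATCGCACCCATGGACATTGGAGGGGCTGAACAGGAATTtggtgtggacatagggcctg
The first (mm9 chr15:97806505-97806564) read 617.5 and 500.1 and gave -0.18. The second (chr15:97806485-97806544), printed 10 times, read 39.9 and 32.3 and was well above background in 5 of 10 spots on the empty vector array and 2 of 9 on the other. Its spots gave -0.18 with a standard error of 0.21. By the rule for dim probes it gives only a bound, -0.11. The point values of the overlapping probes were alike, but the second probe is too dim for this to be a check of the first. The remaining, dim probe of the gene gave a bound in the opposite direction, 0.85.

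Of 7 detected basement membrane collagens, 5 lay below 0, mostly by small amounts. Past 2-fold was 1 gene, downward, and the median was -0.37. Col4a1 and Col4a2, the ubiquitous type IV pair that assembles into one trimer, gave -0.37 and -0.42 on their brightest probes, with intensities of 11681.4 and 8267.4 for Col4a1 and 7339.0 and 5005.1 for Col4a2. Their other probes gave -0.72 for Col4a1 and -1.60 for Col4a2, so all 4 probes of the pair read lower. The Col4a2 probe with the larger difference read 2521.1 and 759.2 (mm9 chr8:11448180-11448239) and is shown beside its value for that reason.
Col4a2 probe A_52_P496142: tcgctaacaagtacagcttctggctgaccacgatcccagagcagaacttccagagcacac

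Col4a5, a chain of the kidney and skin networks, read 499.4 and 197.7 and was 2.31-fold lower. Its partner Col4a6 gave 3 discordant values. From the most 5-prime to the most 3-prime, its probes read 12050.2 and 8193.4 (mm9 chrX:137601433-137601491), 894.0 and 57.1 (chrX:137600816-137600875), and 982.9 and 1065.3 (chrX:137599990-137600049). Only the middle probe passed 2-fold, with a difference of -3.84 or 14.3-fold lower, while the probes on either side gave -0.43 and 0.24. That middle probe is a single spot in row 452 and column 2 of the array, and the part of its position in the result was not tested. Every collagen probe is a single spot on each array, apart from the Col1a1 and Col2a1 probes printed 10 times.

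The remaining basement membrane genes differed little. Col4a3 and Col4a4, chains of the kidney filter, gave -0.08 and 0.18. Col18a1, source of the fragment endostatin, read 194.4 and 260.4, 1.46-fold higher, with a bound of 1.04 from a dim probe. Col15a1 was not well above background on either probe, with intensities of at most 8.3.

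Type VI chains were the only assembly with every detected gene past 2-fold lower, 2 of 2. Col6a1 read 7928.0 and 2258.2 on its single probe (mm9 chr10:76171899-76171958), 3.21-fold lower. Col6a2 read 2043.6 and 489.1 (chr10:76058931-76058990), 3.83-fold lower, and its other probe read 276.1 and 126.6, just short of 2-fold lower. Both chains assemble with a further chain into the type VI monomer. Among candidates for that chain, Col6a3 was not well above background on either of its 2 probes, which read between 18.2 and 31.3, so this partner could not be compared.

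FACIT genes held the largest difference. Col12a1, a collagen found on type I fibrils, read 1200.7 with empty vector and 38.1, not well above background, on the array labelled MARVELD1 (mm9 chr9:79447270-79447329). For a probe dim on 1 array, the difference is a bound: the bright reading is set against the dim reading, or against the weakest detected probe of that array (intensity 33.0 with empty vector and 33.8 on the other) where that is larger. For Col12a1 this bound was 28.9-fold lower, a log2 difference of -4.85, with no allowance for spot noise. Its second probe, at 77.7 and 8.1, gave a bound of 2.10-fold lower. Both probes of the gene therefore read lower, and both were dim only on the array labelled MARVELD1. The size depended on the processing, at -3.61 with normexp and -2.96 with the mean of both probes. Requiring detection on both arrays, or using the authors' deposited table, left the gene without a value.

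Other FACIT genes showed no common direction. Col16a1 gave -0.40 at 39106.3 and 27219.8. Col22a1, a collagen of tissue junctions, was the gene with the largest difference upward, 3.61-fold, but from dim readings of 74.1 and 245.0. Col14a1 gave a bound of -0.59 and Col9a1 -0.61, whereas Col9a2 and Col9a3, which assemble with Col9a1 into type IX collagen, gave 0.15 and 0.10. Col19a1 gave -0.35 from its brightest probe and a bound of 0.67 from a dim one.

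Transmembrane collagens had 4 detected genes and a median of -0.29. Col13a1 split by probe: the one at mm9 chr10:61301277-61301336 read 240.1 and 73.2, a difference of -1.59, and the one at chr10:61330216-61330585 read 8.5 and 257.5, at least 8.53-fold higher. The second spans more genome than its 60 bases, and its sequence holds a short run of 3 GG at steps of 9 bases, in capitals. It is shown because it opposes the other probe of the gene.
Col13a1 probe A_52_P147487: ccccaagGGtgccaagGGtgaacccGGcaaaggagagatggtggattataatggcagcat
With the mean of both probes the value for Col13a1 turned to 0.75. Col17a1, the hemidesmosome collagen, gave -0.60 and -0.76 on its probes, and Col23a1 and Col25a1 gave 0.02 and 0.40.

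The few detected short chain and other collagen genes lay above 0, and none passed 2-fold by its brightest probe. Most genes of the array lay above 0 too, with 34.3% below it and a median of 0.19. Col8a1, which forms hexagonal networks in vessel walls and the eye, read 16089.3 and 21015.3, 1.43-fold higher, and 532.0 and 1294.3 on its more 3-prime probe, 2.66-fold higher. Col7a1, the anchoring fibril chain of skin, read 773.1 and 1113.3, 1.57-fold higher, and Col28a1 was 1.34-fold higher. Col8a2 and Col10a1 were not well above background on either array.

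Probes of some collagen genes disagreed in size. Among 11 collagen genes with at least 2 probes measured on both arrays, 9 had all probes on one side of 0, against 53.9% of 5446 genes of the whole array. The SD between probes of a gene was 0.99, but it rested on Col4a6 and was 0.58 without it, near the 0.54 of all genes. For 5 of them (Col1a1, Col3a1, Col4a2, Col4a6 and Col6a2) some but not all probes passed 2-fold lower, against 9.18% of all such genes, and for 0 of the 11 all probes did, against 0.753%. In 9 collagen genes with measured probes at least 500 bases apart, the most 5-prime probe minus the most 3-prime probe gave a median of 0.00, against -0.28 over 4595 genes. For Col3a1 the dim probe, at 101.6 and 86.9, gave only -0.10. Of the 78 probes, 47 were measured on both arrays, 8 gave a bound and 23 were below the limit on both. Counting those with a value, 12 probes were at least 2-fold lower and 6 higher, against 4.7% and 6.13% of the 29537 such probes of the whole array.

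**Figure D3:**
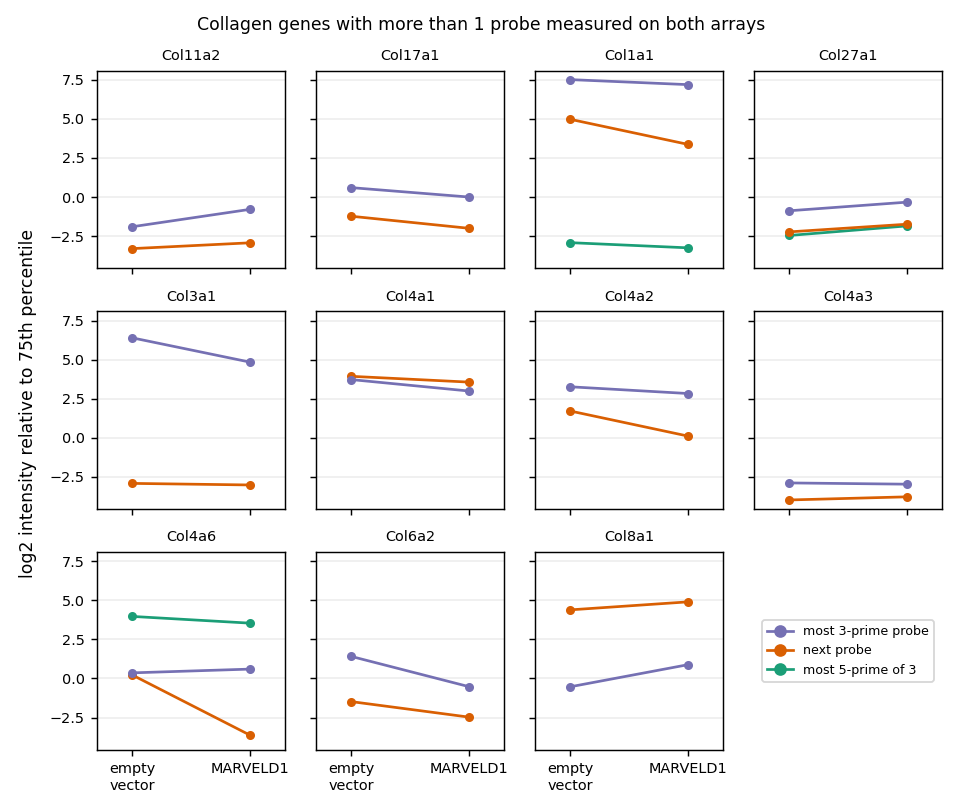
Scaled log2 intensity (y axis) of each probe on the empty vector array and the array labelled MARVELD1 (x axis) for the 11 collagen genes with more than 1 probe measured on both, each line 1 probe, coloured by its place from the 3-prime end. Levels of different probes are not comparable and only slopes are. Lines run nearly parallel for Col27a1, Col17a1 and Col4a3 and diverge for Col4a6, where the difference of 1 probe is -3.84.

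Differences of collagen genes that are neighbours on a chromosome were set side by side. Of the 39 genes, 12 form 6 pairs of adjacent protein-coding genes in the RefSeq order. Col3a1 and Col5a2 gave -1.56 each, Col6a1 and Col6a2 -1.68 and -1.94, and Col4a1 and Col4a2 -0.37 and -0.42. Further pairs were Col9a1 and Col19a1 at -0.61 and -0.35, Col4a3 and Col4a4 at -0.08 and 0.18, and Col4a5 and Col4a6 at -1.21 and -0.43. The median gap within a pair was 0.25, and the largest 0.78, and 5 of the 6 pairs lay on one side of 0. Over 12104 adjacent pairs of detected genes the median gap was 0.47, and 56.4% lay on one side of 0. These gaps depended on the probe chosen. With the mean of all probes the median gap was 0.34, against 0.46 over all pairs, with Col3a1 at -0.83 beside Col5a2 at -1.56 and Col19a1 at 0.16 beside Col9a1 at -0.61. With the most 3-prime probe the largest gap was 1.45, from Col4a6 at 0.24 beside Col4a5 at -1.21, and 4 pairs lay on one side of 0. The pairs were looked at after their values had been seen, and 3 of the pairs are type IV chains and 1 is type VI, so that position and assembly cannot be told apart there.

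Start regions of the collagen genes were read from RefSeq (build GRCm38.p6), which held windows from 250 bases before to 50 bases after the start for 31 of the 39 genes, in 34 windows. The windows of Col4a1 and Col4a2 share 78 bases, with start sites on opposite strands 21 bases apart, and those of Col4a5 and Col4a6 lie 1343 bases apart on opposite strands. On both strands TATAAA was present in 14.7% of the collagen windows and 13.6% of all 32851, CCAAT in 35.3% and 37.4%, and GGGCGG, a GC box, in 58.8% and 35.7%. None of these motifs contains another. Among the 6 genes at least 2-fold lower that have a window, 2 held TATAAA, 2 CCAAT and 3 GGGCGG.

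The 250 bases before the start are shown for 3 of the genes with the larger differences, Col3a1 and the type VI pair, with matches to these motifs in capitals.
Col3a1, chr1:45311288-45311537, plus strand: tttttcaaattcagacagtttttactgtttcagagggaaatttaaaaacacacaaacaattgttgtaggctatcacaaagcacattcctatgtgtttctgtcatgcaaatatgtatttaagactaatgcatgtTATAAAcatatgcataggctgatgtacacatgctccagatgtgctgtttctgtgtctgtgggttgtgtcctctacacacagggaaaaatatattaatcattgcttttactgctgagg
Col6a1, chr10:76726045-76726294, minus strand: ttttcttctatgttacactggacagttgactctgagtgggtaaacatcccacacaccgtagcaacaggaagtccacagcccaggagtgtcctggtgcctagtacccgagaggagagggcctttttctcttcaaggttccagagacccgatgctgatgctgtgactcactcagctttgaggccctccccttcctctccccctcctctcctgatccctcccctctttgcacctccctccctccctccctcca
Col6a2, chr10:76623631-76623880, minus strand: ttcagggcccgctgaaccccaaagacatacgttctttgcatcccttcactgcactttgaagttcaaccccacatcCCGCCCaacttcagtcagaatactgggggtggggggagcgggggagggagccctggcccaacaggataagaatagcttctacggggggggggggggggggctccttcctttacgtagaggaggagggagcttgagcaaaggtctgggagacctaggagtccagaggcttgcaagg
Col3a1 held 1 TATAAA, Col6a2 held 1 GC box on the reverse strand before the more upstream of its 2 listed starts and 3 on that strand before the other (chr10:76623405-76623654, not shown), and Col6a1 held 0 of the motifs.

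Genes that make, bind or degrade collagen had no common direction as a whole. Of 45 such genes, 38 were detected, and 19 of the 38 lay below 0, where 34.3% of all genes did. Of the 38, 3 passed 2-fold downward (7.89%, against 3.55% of all genes) and 1 upward (2.63%, against 5.53%). Their median was -0.01 where that of all genes was 0.19. Below 0 were 3 of the 4 detected degradation genes but 1 of the 5 propeptide cleavage genes. By list the median ran from -0.74 for the 4 detected degradation genes, through -0.27 for crosslinking, 0.04 for proteoglycans and 0.13 for hydroxylation and folding, to 0.41 for the 5 propeptide cleavage genes. P3h1, a prolyl 3-hydroxylase of procollagen, read 704.6 and 277.5, 2.32-fold lower, the only 1 of 13 folding and hydroxylation genes past the limit by its brightest probe. The N-propeptidase gene Adamts2 read 3952.9 and 781.2, 4.63-fold lower, with other probes up to 0.19. Mrc2, an endocytic receptor that takes up collagen fragments, was 2.71-fold lower at 1933.3 and 654.0, with its other probe at -2.66. Loxl2, a crosslinking enzyme, was dim on the empty vector array and at least 2.45-fold higher on the other. All 5 detected receptor genes for collagen lay below 0, with a median of -0.33, and 0 of them passed 2-fold by their brightest probe. Other probes gave -1.80 for Itgb1, the shared beta chain of collagen-binding integrins, and about 2-fold lower for Ddr2, a receptor kinase. In the other lists, such probes gave -1.17 for the degradation gene Mmp14, and -1.08 and -1.06 for the folding and hydroxylation genes Plod3 and Mia3. These genes were named after their values were seen.

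The arrays had similar shares of spots well above background, but outlier spots were more numerous on the array labelled MARVELD1. Each had 43379 non-control spots, with 68.7% and 69.0% well above background, 116 and 223 outlier spots and 0 saturated spots, and 2 of the 96 collagen spots were outliers on either array. The 5-prime minus 3-prime difference given above was below 0 in 3106 of 4595 genes, with a median of -0.28, and in 5 of 9 collagen genes, with a median of 0.00. The part of RNA quality in this was not tested. Of the fibroblast markers 7 of 8 were detected, all but Fap, with summed intensities of 389835.3 and 385686.1. Those sums rest mostly on S100a4 (log2 difference 0.25) and Vim (0.21), while Thy1 gave -0.57, Pdgfra -0.54 and Pdgfrb, the only 1 past 2-fold, -2.10. Dcn gave 0.02 and Lum 0.04, and the median of the detected fibroblast markers was 0.02. The markers named here were picked after their values were seen. Of the cartilage markers 3 of 6 were detected, with sums of 6515.8 and 3147.0 that rest mostly on Sox9, at 6192.7 and 2873.0, and of the bone markers 4 of 5 on the array, with 1619.7 and 1463.5. Epithelial markers summed to 276.3 and 343.8, with 2 of 6 detected and Cdh1 and Epcam dim on both arrays. Krt8 gave 0.08 and Krt18 was higher by a bound of 1.38. Endothelial markers (6 of 6) summed to 1861.4 and 1385.2 but had a median log2 difference of 0.32, since Cdh5 at -0.74 carries most of the sum. Myeloid markers (6 of 6) summed to 5316.3 and 4072.8 with a median of 0.35, and Cd14 at -0.36 carries most of that sum. Skeletal muscle markers (4 of 6) summed to 1091.6 and 1394.5. These sums are of intensities before scaling. The part of these in the collagen values was not tested, and fewer cells with a transcript cannot be told apart from less of it per cell.

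The number of genes lower changed little under other ways of processing the same 2 arrays, but its members changed in part, and the median moved more. Under the 9 alternatives for scaling, background, filter, probe and source, between 7 and 9 collagen genes were at least 2-fold lower, and between 0 and 4 were higher. The collagen median lay between -0.64 and -0.18 under 8 of them but was 0.02 when all probes of a gene were averaged, where that of all genes was 0.15. Col4a5, Col5a2, Col6a1, Col6a2, Col11a1 and Col12a1 stayed past 2-fold lower under every alternative that gave them a value. Col4a5, Col5a2 and Col6a1 have 1 probe and Col11a1 has 1 detected probe. For these genes the alternatives for filter and probe could only return the main value, so only scaling, background and source could move them. The authors' deposited table gave nearly the values of scaling to the array median, with Col5a2 at -1.67 in each. With the mean of all probes, Col3a1 (-0.83) and Col13a1 (0.75) left the lower genes, and Col4a2 (-1.01) and Col4a6 (-1.34) joined them. Col1a2 joined them with quantile normalization, loess and normexp.

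**Figure D4:**
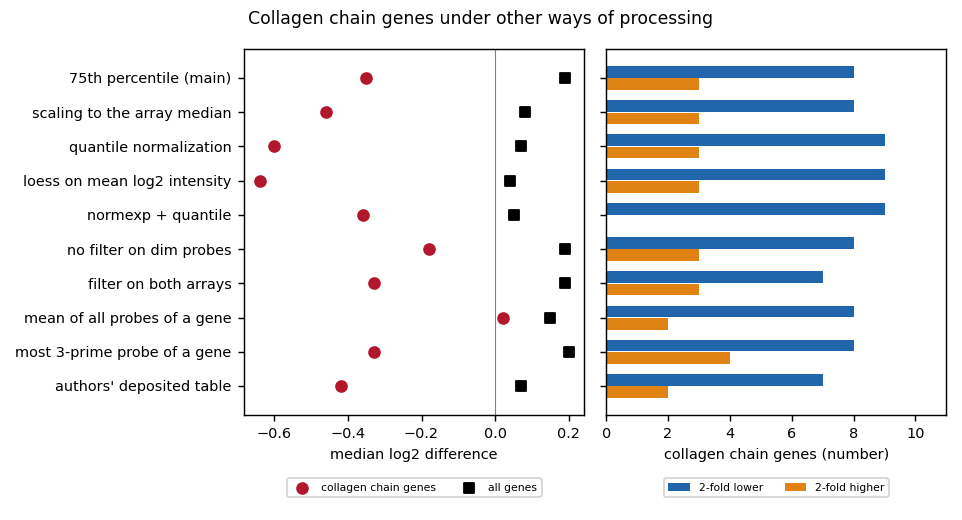
Median log2 difference of the collagen chain genes and of all genes (left) and number of collagen genes at least 2-fold lower and higher (right) under the main setting and 9 alternatives (y axis). The collagen median stays left of that of all genes in every row and crosses 0 only with the mean of all probes (0.02), and the number lower stays between 7 and 9.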

How the data were processed

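The deposited scanner files hold the intensity of each spot from Agilent Feature Extraction 9.5.3.1, per the file headers. The authors' processed intensity is background-subtracted and detrended within an array, with no scaling between arrays, per the same headers. A further table deposited by the authors gives normalized intensity values of 26851 probes, 48 of them collagen. Its columns (medians 3.11 and 2.94) equal the processed intensity divided by 124.6 and 123.3, within 1% for 99.6% of probes, and the choice of these divisors is not explained in those files. The flags of spots (other columns) were used as deposited.

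Control and outlier spots were left out. Each log2 intensity was scaled by the 75th percentile of the array (768.1 and 703.3) and averaged over spots of a probe. A probe counted as well above background where at least 0.5 of its usable spots were. Probes (41084 usable) were named where RefSeq (GRCm38.p6) held the gene name of the files, as a symbol or an older name, which gave 32276. The design had set that other names be kept as they stand. Many of those are transcript or probe identifiers, so the shares over all genes are given both ways, and the collagen values are the same. Normexp (offset 50), quantile normalization and loess (span 0.3) were run with limma 3.58.1 in R 4.3.3. The code that makes the calls was run on simulated data, with planted changes larger than 2-fold and less noise than dim probes show. That run checks the code only and gives no error rate for the collagen calls. All 78 collagen probes are accounted for by the naming rule, which names every collagen gene and, of the fixed pathway list, genes past 2-fold. Members, lists and tests were chosen with earlier results of these data known. With 1 array per group, the number of arrays limits the precision.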

Additional observations from a re-analysis of the deposited data

How the results depend on the processing

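Naming, the probe choice for neighbours, the gene left out and the arithmetic mean were added after seeing the data. With scaling to the array median the collagen median was -0.46, with quantile normalization -0.60, with loess -0.64, keeping dim probes -0.18 and averaging all probes 0.02, the opposite sign. Normexp with quantile normalization gave 0 collagen genes at least 2-fold higher. At 1.5-fold there were 5 higher and 12 lower (19.7% and 8.99% of all genes), and at 3-fold 1 higher and 4 lower (1.28% and 1.31%). Col13a1 turned to 0.75 with the mean of all probes. Of 311 single-gene values 13 moved by more than 0.48, the single-spot SD over all probes, and 48 by more than that of their own brightness. Of them 14 values of 7 genes had the opposite sign: Col13a1, Col19a1, Col2a1 and Col4a3 with the mean of all probes, Col4a6 with the most 3-prime probe, and Col23a1 and Col9a3, both within 0.10 of 0, with other scalings or the deposited table. The cause was not tested. No paired analysis was possible because each group has 1 array. Single-spot noise limits dim probes.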
